A study of Saccharomyces cerevisiae with 24 samples.

Results

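The heat course of Saccharomyces cerevisiae strain SS330 was followed on 6 two-colour arrays, which are 6 of the 24 arrays of a study of budding yeast shifted from 23C to 37C. The arrays were chosen by strain and time alone: 1 array of cells at 23C (0 min) and 1 array each after 5, 15, 30, 60 and 120 min at 37C. The other 18 arrays hold the same times in prp17 null, prp17-1 and prp22-1, which carry mutations in genes of pre-mRNA splicing factors, and are used only for comparison. The labels name SS330 without a genotype or a medium, and they do not say whether the 6 times came from 1 culture. The labels put the total RNA of the cells in the Cy5 channel and genomic DNA of yeast in the Cy3 channel, and 1 value is given per probe. The values do not look like plain ratios of RNA to DNA, since at 0 min they vary over all probes with an SD of 0.36, and how they were scaled is not given in the sources used here.

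Yeast moved to a higher temperature meets proteins that unfold, and the transcription factor Hsf1 then raises genes for chaperones, which refold or hold proteins, and for proteins that break up aggregates. A second arm, run by Msn2 and Msn4, raises many genes of a general stress programme, among them genes for trehalose, glycogen, oxidant defence and redox metabolism, while mRNAs for ribosomes and for their assembly fall. At a temperature that cells tolerate this programme is known to be transient, and the cell wall integrity pathway, through the kinase Slt2 and the factor Rlm1, is a slower branch that acts on wall proteins. The course bears on which mRNAs took part, when each was farthest from its starting value and which were back by 60 and 120 min.

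A value was the log2 ratio of a probe, centred on the array's median, and a change was that value minus the value at 0 min, so 1 on this scale is 2-fold. Centring sets changes against the middle probe of each array, so a shift of all mRNA per cell is not measured. There was 1 array per time, so no time has a replicate and no test was made within the course. A probe is said to have risen or fallen when it was at least 2-fold from 0 min in the same direction at 2 neighbouring times, since 2 arrays then agree. All 5 changes of a gene share the 0 min array, so an error there enters every one of them. Of 6350 probes, 92.7% (15 min) to 98.0% (30 min) had a value on an array, 5134 had a value on all 6, and 306 had none at 0 min. For 33 genes with several probes, 151 pairs of changes gave an SD of 0.30 for a single probe, and 5 of the 151 pairs lay at least 2-fold apart. This SD covers differences between probes on an array and not differences between cultures, RNA extracts or arrays. The heat check was met: SSA1, SSA4, HSP26, HSP104, HSP42, HSP78 and HSP12 all rose. That RNA is the numerator was also read from heat shock genes, so this is no independent check of the direction of the ratio.

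The response was early and largely transient. At 5 min 250 of 5830 probes were at least 2-fold higher (4.29%) and 386 at least 2-fold lower (6.62%). At 15 min 283 of 5619 were higher (5.04%) and 323 lower (5.75%). The numbers then dropped to 149 higher (2.51%) and 66 lower (1.11%) at 30 min, to 58 (0.983%) and 25 (0.424%) at 60 min, and to 59 (1%) and 18 (0.305%) at 120 min. The SD of the change over all probes went the same way, from 0.66 at 5 min and 0.68 at 15 min to 0.45, 0.34 and 0.34 at the later times.

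**Figure D1:**
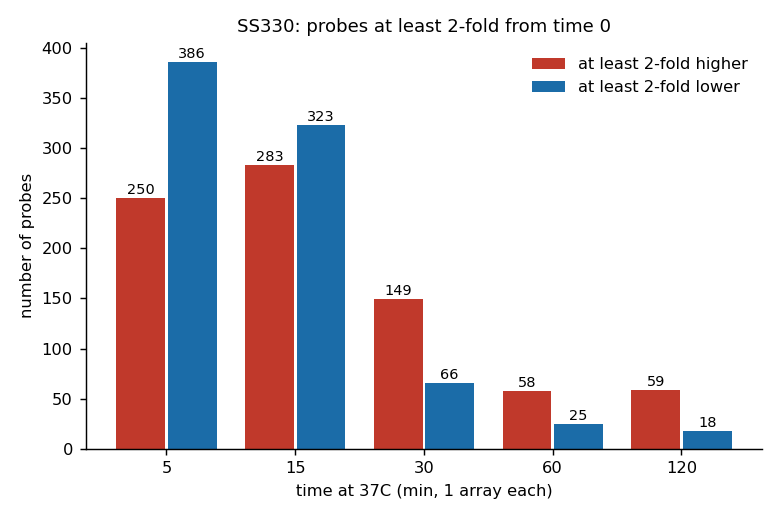
Number of probes (y axis) at least 2-fold higher (red) or lower (blue) than at 0 min at each time at 37C (x axis, 1 array each) in SS330. Lower probes outnumber higher ones at 5 and 15 min, and higher ones outnumber lower ones from 30 min on.

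By the rule of 2 neighbouring times 244 of 6021 probes rose (4.05%) and 270 fell (4.48%), 514 in all (8.54%), and 231 rises and 252 falls carry a gene name. The shares of 4.05% and 4.48% are the background for the list counts below. In a short list, 1 or 2 calls, or none, do not set it apart from all probes. Among the 217 rises with a value on all 6 arrays the change was largest at 5 min in 63 and at 15 min in 118, while 19 were largest at 30 min, 11 at 60 min and 6 at 120 min. Among the 262 such falls it was largest at 5 min in 111 and at 15 min in 140, and later in 11. The median rise was 1.35, 1.53, 1.01, 0.45 and 0.30 at 5, 15, 30, 60 and 120 min, and the median fall was -1.47, -1.51, -0.62, -0.35 and -0.29. Rises thus lasted longer than falls at 30 min: 111 of 217 rises were still past 2-fold there, against 49 of 262 falls. A change within 1.5-fold of 0 min is called returned. By 60 min 57.6% of rises and 82.4% of falls had returned, and by 120 min 68.7% and 87.4%. These shares rest on the scale of the arrays as deposited: when the 6 arrays were forced to the same distribution by quantile normalization, 215 probes rose, 127 of them shared with the 244, 183 fell, 108 of them shared with the 270, and the shares returned at 120 min were 30.8% and 38.2%. The calls also rest on the 5 and 15 min arrays: without 1 or the other, rises numbered 133 and 123 and falls 52 and 47.

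HSP26, the gene of a small heat shock protein that binds unfolding proteins, had the largest rise. Its centred log2 ratio was -0.05 before the shift, then 5.21, 4.53 and 4.73 at 5, 15 and 30 min, and 0.99 and 0.73 at 60 and 120 min. The 3 early values lie far above the 0 min value, and the last 2 lie above it by 1.04 and 0.78. Of the 9 probes for disaggregases, small heat shock proteins and sorting factors, 6 rose and none fell, with list medians of 2.89, 2.34, 0.13, 0.12 and -0.00 in time order, against 0.01, 0.02, 0.02, 0.02 and 0.01 over all probes. HSP104, the disaggregase that pulls proteins out of aggregates, changed by 2.57, 3.20, 1.03, 0.15 and -0.49. HSP12, which encodes a small membrane-associated stress protein, changed by 3.21, 3.0, 2.65, 1.13 and 1.54 and was still past 2-fold at 120 min. HSP31, a member of the DJ-1 family of chaperones, changed by 1.19, 1.69, 1.04, 0.12 and -0.01.

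Cytosolic Hsp70 genes split by role. Of 11 probes for Hsp70, Hsp110 and their partners, 7 rose: SSA1, SSA2, SSA3 and SSA4, the general cytosolic Hsp70s, SSE1 and SSE2, the Hsp110 exchange factors, and FES1, another exchange factor. The stress-inducible SSA3 changed by 3.41, 3.99, 2.76, 0.59 and 0.06, and SSA4 by 2.87, 3.40, 1.72, 0.29 and -0.19. The largely constitutive SSA1 rose less, by 1.11 and 1.08 at 5 and 15 min. SSE2 changed by 3.94, 3.80, 1.36 and 1.18 up to 60 min and had no value at 120 min. The Hsp70s that sit on the ribosome and assist new chains did not rise: SSB1 changed by -0.51, -0.80, -0.42, -0.09 and -0.19, SSB2 by -0.98, -1.59, -0.54, -0.49 and -0.39, and SSZ1 by -0.45, -0.78, -0.16, 0.03 and 0.39. ZUO1, the ribosome-bound Hsp40 that works with them, changed by -0.81, -0.96, -0.90, -0.16 and -0.31. SSA1 and SSA2, like SSB1 and SSB2, are near-identical copies whose probes may share signal.

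Of 11 Hsp40 probes only YDJ1, the main cytosolic Hsp40, met the rule, with 1.68 and 1.10 at 5 and 15 min. SIS1, the Hsp40 that also restrains Hsf1 by way of Hsp70, was 2.99 above 0 min at 15 min but had no 5 min value, and stood at -0.02 by 30 min. In the Hsp90 group 3 of 11 probes rose. CPR6, a cyclophilin that binds Hsp90, changed by 3.0, 3.06, 1.97, 0.77 and 0.68, and STI1, which links Hsp70 to Hsp90, by 3.03, 2.92, 0.82, 0.53 and 0.04. AHA1, which activates the ATPase of Hsp90, and HSC82, one of the Hsp90 genes, had no 15 min value. AHA1 stood at 2.40, 1.18, 0.98 and 0.62 at the other times and HSC82 at 2.19, 1.14, 0.45 and -0.00. A value was missing at 15 min for 425 probes with a 0 min value, and of the 403 with a value at 5 min 13.6% were at least 2-fold from 0 min there, against 10.9% of all probes. Strong genes were thus among those that could be called only by their values from 30 min on.

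Mitochondrial chaperones rose more modestly, 4 of 12 probes. HSP60, the mitochondrial chaperonin, changed by 2.23, 2.08, 1.92, 0.91 and 0.20, and HSP10, its lid, by 1.86, 1.73, 1.08, 0.64 and 0.23. HSP78, the mitochondrial disaggregase, changed by 2.10, 2.23, 0.15, 0.63 and -0.45, and SSC1, the Hsp70 of import, by 1.57, 1.48, 0.72, 0.08 and -0.56. HSP60 and HSP10 were thus still past 2-fold at 30 min, where HSP78 and SSC1 were not. None of the 14 probes for the cytosolic chaperonin CCT and prefoldin, which fold actin and tubulin, rose or fell, and their median was -0.33 at 5 and at 15 min. In the endoplasmic reticulum KAR2, the Hsp70 of that compartment, was the sole rise among 15 probes, with 2.18, 1.52, 0.46, 0.54 and 0.24. HAC1, the transcription factor of the unfolded protein response there, changed by -0.12, -0.25, -0.45, -0.20 and -0.24.

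Ubiquitin and proteasome genes moved in part. UBI4, the polyubiquitin gene, changed by 2.51, 2.39, 1.30, 0.88 and 0.75, and it was 1 of 4 rises among 15 probes for ubiquitin and proteasome regulators. CUZ1 and TMC1, zinc-finger proteins tied to Cdc48 and the proteasome, had values close to each other at the first times, 2.19 and 2.10 for CUZ1 and 2.21 and 2.08 for TMC1 at 5 and 15 min, and were still at 0.85 and 0.78 at 120 min. RPN4, the transcription factor of proteasome genes, was 1.65 above 0 min at 5 min, and its change was 0.56 at 15 min and -0.66 at 30 min, so that 1 time alone was past 2-fold. Of 31 proteasome subunit probes 2 rose (6.45%, against 4.05% of all probes), RPN3 and RPN11, both of the regulatory lid. The list median was 0.54 at 5 min and 0.71 at 15 min. All 30 subunit probes with a value at 5 min and all 31 at 15 min were above 0, most of them by less than 2-fold, and 12 were above 0 at 120 min.

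Of 58 probes in the general stress list, which gathers genes of the Msn2 and Msn4 programme, 36 rose and none fell. The list medians were 1.51, 1.99, 0.83, 0.30 and 0.12. SPI1, a cell surface protein, had centred log2 ratios of 0.00, 4.76, 4.46, 1.73, 0.53 and 0.18 at 0, 5, 15, 30, 60 and 120 min. CTT1, the cytosolic catalase, changed by 4.09, 4.29, 1.01, 0.44 and 0.12. TFS1, an inhibitor of carboxypeptidase Y, changed by 3.63, 4.15, 3.15, 0.66 and 0.76, so that it was farther from 0 min at 30 min than CTT1. SOL4, of the pentose phosphate pathway, was at 3.96, 4.03 and 3.64 at the first 3 times and at 1.22 at 120 min, with no value at 60 min. NCE103, carbonic anhydrase, was largest at 5 min and changed by 3.60, 2.68, 0.79, 0.70 and 0.34. Among the 31 general stress rises with all values, 22 were largest at 15 min and 7 at 5 min, and 26 had returned by 120 min. Other large rises were those of RSF1, a regulator of respiratory growth (3.43, 4.07, 2.21, 0.06 and -0.12), FMP16 (3.06, 3.69, 1.30, 0.19 and 0.06) and FMP45 (3.51, 3.49, 1.18, 0.16 and 0.14), whose products are found at mitochondria or the cell cortex. A separate list of 28 antioxidant probes did not rise as a group. It leaves out CTT1, counted above, and PRX1, a peroxidase, which rose by 2.19 and 2.46 at 5 and 15 min. The result is thus for this list and not for all genes of oxidant defence. In it GRX1 rose and GPX2 fell, 3.57% each way, and the medians were 0.18 and 0.28 at 5 and 15 min. At 15 min 17 of its 25 probes with a value were above 0. SOD2 narrowly missed the rule, with 0.94, 1.17 and 0.97 at 5, 15 and 30 min. GPX2 changed by -1.41, -1.54, -1.30, -1.30 and -0.91.

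Carbohydrate stores took part early. Of 10 trehalose probes 5 rose, all with the largest change at 15 min. PGM2, the main phosphoglucomutase, changed by 3.10, 3.34, 0.42, -0.24 and -0.26. UGP1, which makes UDP-glucose, changed by 2.44, 2.53, 0.26, -0.38 and -0.47. NTH1, the trehalase that degrades the sugar, rose with the makers by 1.85, 2.18, 1.60, 0.82 and 0.59, and TPS2, a phosphatase of the synthase complex, by 1.41, 1.78, 0.06, 0.02 and -0.29. TSL1, a regulatory subunit of that complex, gave -0.39, -0.16, -0.01, -0.11 and -0.21, and TPS1, the synthase, had no 0 min value but centred log2 ratios of 3.39 and 3.55 at 5 and 15 min and of 0.68 and 0.70 at 60 and 120 min. Of 13 glycogen probes 6 rose and all 6 had returned at 60 and at 120 min. They include both directions of the pathway: GSY2, glycogen synthase (1.75, 2.03, 0.69, 0.24 and 0.39), GLC3, the branching enzyme (1.68, 1.89, -0.22, -0.05 and -0.41), GPH1, the phosphorylase (2.0, 1.90, 1.61, 0.24 and 0.32) and GDB1, the debranching enzyme (2.22, 2.36, 1.84, 0.30 and 0.31). At 30 min the 2 degrading enzymes were past 2-fold and the 2 synthetic ones were not.

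Glucose kinases differed in their return. GLK1, glucokinase, changed by 2.52, 2.98, 1.09, 0.21 and 0.11, and HXK1, a hexokinase, by 2.67, 2.49, -0.43, -0.09 and -0.46. Of 33 probes for glycolysis and fermentation 4 rose, 12.5% of the 32 that could be called, against 4.05% of all probes. The other 2 were PYK2, the minor pyruvate kinase (1.64, 1.57, 0.64, 0.29 and 0.25), and GPP2, which makes glycerol. GPP2 changed by 1.36, 1.64, 0.86, 1.65 and 1.02, past 2-fold on 4 of 5 arrays. Of 62 respiration and citric acid cycle probes 6 rose, 10.2% of the 59 that could be called. CIT1, mitochondrial citrate synthase, changed by 2.18, 2.19, 1.74, 0.68 and 0.09.

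**Figure D2:**
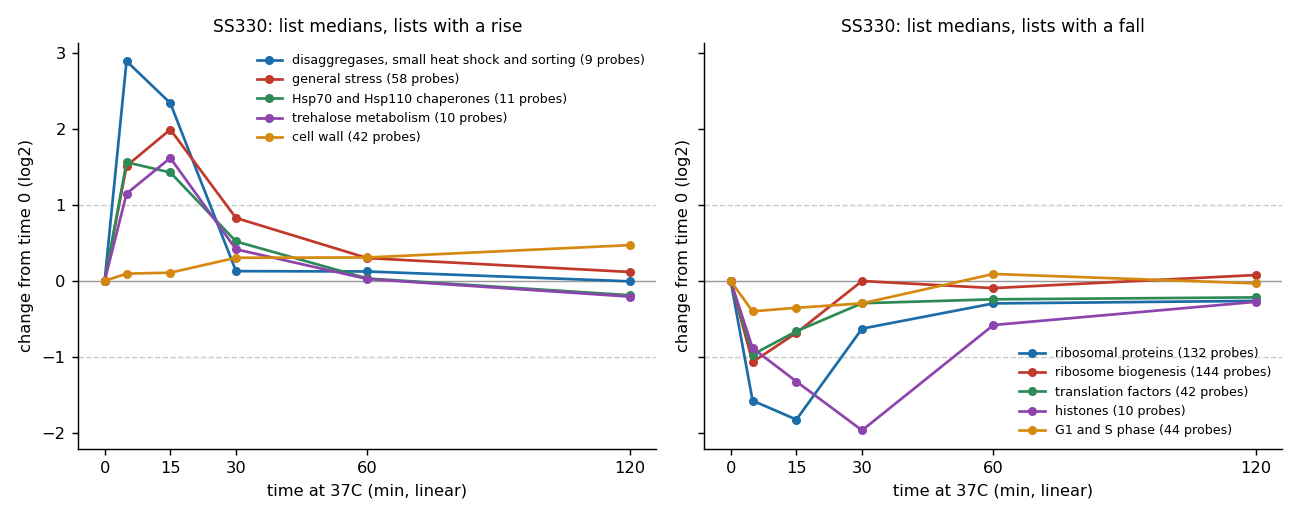
Median change from 0 min (y axis, log2) of 10 gene lists against time at 37C (x axis, min, linear) in SS330, with dashed lines at 2-fold. The chaperone and stress lists peak at 5 or 15 min and are near 0 at 60 min, the histone list reaches its lowest point of -1.96 at 30 min, and the cell wall list is highest at 120 min, at 0.47.

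Some of the fastest genes ended below where they began. BTN2, which sorts misfolded proteins into deposits, had centred log2 ratios of 0.54, 4.51, 2.88, -0.14, 0.49 and -0.49 in time order. Its change went from 3.97 at 5 min to -0.68 at 30 min and -1.03 at 120 min. HSP42, the small heat shock protein that gathers such deposits, changed by 3.39, 3.0, -0.77, -0.15 and -0.88, and FES1 by 2.82, 1.43, -0.71, -0.36 and -0.76. In 9 rises and 2 falls the change after the peak lay at least 1.5-fold on the other side of 0 min, a limit chosen after the values were seen. The rises were BTN2, HSP42, FES1, EMI2, RGI1, XKS1, OM45, LSP1 and YBR053C, and the falls were PHO3, an acid phosphatase, and PRY2, a sterol-binding secreted protein. With the mean 0 min value of the 4 strains in place of that of SS330, 4 of the 9 rises, BTN2, HSP42, FES1 and YBR053C, and both falls still met this limit. EMI2, RGI1, XKS1, OM45 and LSP1 did not, and the 0 min values of these 5 in SS330 were above the mean of the 3 mutants by 0.56 to 1.06. Only genes already chosen by their change from the SS330 0 min value were recomputed, so these counts could only drop.

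**Figure D3:**
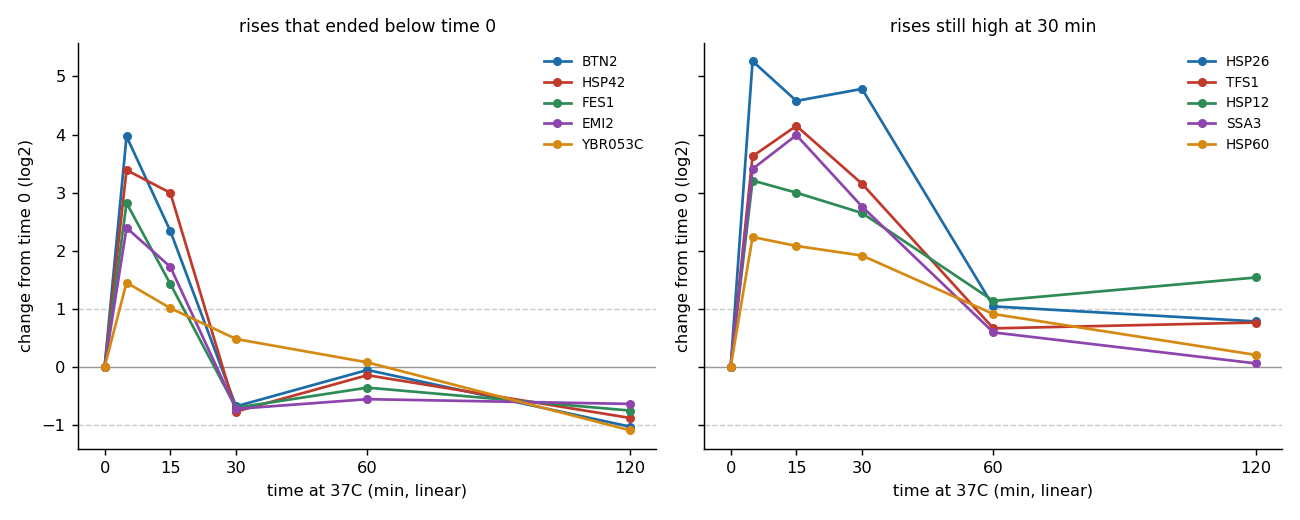
Change from 0 min (y axis, log2) of 10 genes against time at 37C (x axis, min, linear) in SS330, 1 array per time, with dashed lines at 2-fold. In the left panel the genes lie between -0.77 and 0.48 at 30 min, and in the right panel all are between 1.92 and 4.79 at that time.

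A smaller set of rises was largest at 30 min, with medians of 0.78, 1.10, 1.54, 1.04 and 0.72 over its 19 probes. ADE17, an enzyme of the last steps of purine synthesis, changed by 0.48, 1.46, 2.49, 1.67 and 1.24. MTD1, which handles one-carbon folates for purines, changed by 0.53, 0.81, 1.55, 1.12 and 1.08, and GCV3 and GCV2, of the glycine cleavage system that supplies such folates, by 0.30, 0.57, 1.17, 1.11 and 0.44 and by -0.14, 1.83, 1.47, 0.80 and 0.07, the last being largest at 15 min. These were the 4 rises among 37 nucleotide synthesis probes, of which 4 others fell, and the median of that list was -0.48 at 5 min and 0.06 at 30 min. HIS5, of histidine synthesis, also peaked at 30 min (1.28) and was the sole rise among 62 amino acid synthesis probes. IDH1 and IDH2, the subunits of mitochondrial isocitrate dehydrogenase, followed each other closely, with 0.93, 1.43, 2.17, 0.53 and 0.24 for IDH1 and 0.82, 1.48, 2.06, 0.66 and 0.24 for IDH2. ACO1, aconitase, the enzyme before them in the cycle, stood at 0.22, 1.00, 1.97, 0.41 and -0.42, where the rule was not met.

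Rises that were held were few, and 16 of the 26 were not held against another 0 min value. At 60 and 120 min 26 of the 217 rises were both times still past 2-fold. YOR338W, whose product is not characterised, had centred log2 ratios of -0.26, 1.61, 1.72, 2.02, 2.03 and 1.69, a plateau about as high at 60 min as at 30 min. CRH1, which links chitin to glucan in the wall, climbed from -0.02 at 0 min over 0.51, 0.71 and 1.34 to 1.75 at 60 min and 1.63 at 120 min. With the mean 0 min value of the 4 strains, 10 of the 26 were still held: PDE1, CRH1, YHR112C, CRG1, IMP2, ADE17, AQR1, CYB5, YOR338W and YPL088W. The other 16 were not, and in 20 of the 26 the 0 min value of SS330 was below the mean of the 3 mutants, by a median of 0.35 over all 26. HSP150, for example, lay 1.19 below the mutants at 0 min, YKU70 1.16 below and ACA1 1.22 below. The mutants differ from SS330 in genotype, so their 0 min arrays are no replicates of its own. The 26 were chosen by their change from the SS330 0 min value, a choice that favours low values there. Only these 26 were recomputed, so their number could only drop, and rises held only against the other baseline were not counted.

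The cell wall list held early and held changes side by side. Of 42 wall probes 7 rose and 2 fell, and 4 of the 5 rises with all values were held. The list median moved from 0.10 and 0.11 at 5 and 15 min to 0.31, 0.31 and 0.47, and with the mean 0 min value of the 4 strains it moved from 0.01 to 0.41. SED1, a structural wall protein, changed by 1.05, 1.33, 1.34, 1.23 and 1.37, HSP150, a secreted wall protein induced by heat, by 1.75, 2.17, 1.63, 1.09 and 1.62, and PST1, a surface protein of the integrity pathway, by 0.89, 1.45, 1.41, 0.96 and 1.47. SED1 and HSP150 were not held against the mean of the strains, where their 60 min changes were 0.87 and 0.30. RLM1, the transcription factor of the pathway, changed by 0.50, 1.38, 1.09 and 1.47 at 5, 30, 60 and 120 min. SLT2, its kinase, stood at 0.52, 0.81, 1.06, 0.85 and 1.13 and did not meet the rule. PRM5, a membrane protein that is also a target of this pathway, changed by 1.87, 1.82, 1.79, 0.64 and 1.26. The falls, SCW10 (-1.87, -2.45, -1.0, 0.03 and 0.09) and SVS1 (-1.97, -1.94, -0.99, -0.26 and -0.21), were early and had returned by 60 min. VTC3, of vacuolar polyphosphate synthesis, was 2.64 above 0 min at 120 min but between 0.62 and 0.87 at the other times, so that 1 array alone carries it.

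**Figure D4:**
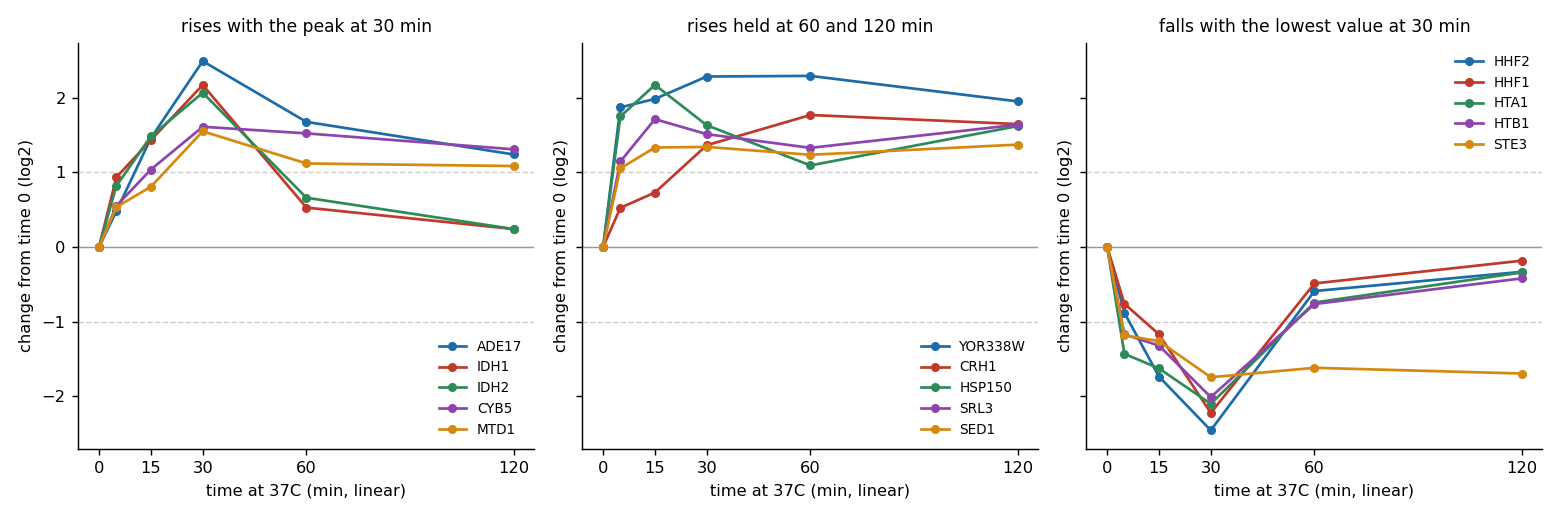
Change from 0 min (y axis, log2) of 15 genes against time at 37C (x axis, min, linear) in SS330, 1 array per time, with dashed lines at 2-fold. The genes in the left panel are highest at 30 min, those in the middle stay past 2-fold at 60 and 120 min, and the 4 histone genes on the right are lowest at 30 min, at -2.46 to -2.01, while STE3 stays down.

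Ribosomal protein genes made up the largest block of falls. Of 132 probes 98 fell and none rose, with list medians of -1.57, -1.82, -0.63, -0.30 and -0.26. RPS22A, of the small subunit, had centred log2 ratios of 0.20, -2.32, -2.60, -0.96, -0.41 and -0.48 in time order. RPS3, also of the small subunit, changed by -2.26, -2.77, -1.25, -0.73 and -0.70, and RPL1B, of the large one, by -2.48, -2.72, -1.18, -0.73 and -0.68. Of the 95 falls with all values 70 were lowest at 15 min and 25 at 5 min, and 89 had returned by 120 min. The genes did not move as 1 block. RPL12A changed by -1.24, -2.51, -0.19, -0.25 and -0.07, while RPS9A gave -0.44, -0.32, -0.26, -0.11 and -0.02, and RPL40A, fused to ubiquitin, -0.29, -0.30, -0.35, -0.09 and 0.18. Many ribosomal protein genes exist as pairs of near-identical copies whose probes may share signal.

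Genes that build ribosomes were mostly lowest at 5 min. Of 144 ribosome biogenesis probes 32 fell, 31 of them with the lowest value at 5 min, and 31 had returned at 60 min and 32 at 120 min. The list medians were -1.07, -0.68, -0.00, -0.09 and 0.08. ROK1, an RNA helicase of the small subunit precursor, had centred log2 ratios of 0.08, -2.11, -1.47, 0.06, -0.06 and -0.04. CBF5, the pseudouridine synthase of ribosomal RNA, changed by -2.02, -1.63, -0.53, -0.30 and -0.42, and TSR1, of the small subunit precursor, by -1.90, -1.20, -0.07, -0.25 and -0.01. NOP56, a core protein of box C/D particles, was at -2.03 at 5 min and -0.18 at 30 min and had no 15 min value. RIO2, a kinase of late small subunit maturation, was the sole rise of the list, with 0.85, 0.91, 1.15, 1.04 and 0.76. Of 41 probes for RNA polymerases I and III 5 fell. RPA135, the second largest subunit of polymerase I, changed by -2.01, -1.43, -0.21, -0.24 and -0.12, and RPA12 and RPB8 by -1.52 and -1.42 at 5 min. At 30 min the biogenesis median was back at 0 while the ribosomal protein median was still at -0.63.

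Of 42 translation factor probes 14 fell and none rose, with medians of -0.97, -0.66, -0.29, -0.24 and -0.22. STM1, which guards idle ribosomes, changed by -1.05, -2.02, -1.29, -0.60 and -0.65. PAB1, the poly(A)-binding protein, changed by -1.58, -1.87, -0.85, -0.43 and -0.23, and YEF3, the fungal elongation factor 3, by -1.33, -1.79, -0.86, -0.32 and -0.31. Of the 14, 8 were lowest at 15 min and 6 at 5 min, and 10 had returned by 120 min.

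Histone genes were mostly lowest at 30 min, though 4 of 9 probes with a value were already at least 2-fold lower at 5 min and 7 of 9 at 15 min. HHF2, an H4 gene, had centred log2 ratios of 0.18, -0.70, -1.56, -2.28, -0.41 and -0.15 in time order, so that it went on falling between 15 and 30 min while most other falls were on their way back. Of 10 probes 7 fell, 6 of them lowest at 30 min, and all 7 had returned by 120 min. The list medians were -0.88, -1.32, -1.96, -0.58 and -0.27. HTA1, an H2A gene, changed by -1.43, -1.63, -2.10, -0.75 and -0.34, and HHF1, the other H4 gene, by -0.76, -1.17, -2.22, -0.49 and -0.18. HHO1, the linker histone, gave 0.11, -0.20, -0.14, 0.02 and 0.06. The paired core histone genes are near-identical, so their probes are not independent. The 30 min array alone holds the low point, and the 15 min array shows the same direction. Core histone mRNAs are made in S phase, and in RNA of a whole culture fewer cells in that phase and less of the mRNA per cell cannot be told apart. Of 44 other probes for the G1 and S phases 6 fell, among them CLN2, a G1 cyclin (-1.72, -1.62, -0.51, 0.19 and 0.27), and MCD1, of cohesin, which was lowest at 30 min (-1.28). CLB2, the main mitotic cyclin, changed by -0.69, -1.17, -1.09, -0.64 and -0.16, and none of 26 M/G1 probes rose or fell.

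Genes of biosynthesis fell in part. Of 62 amino acid synthesis probes 10 fell. LYS9, of lysine synthesis, had a centred log2 ratio of 3.14 at 0 min and changed by -1.09, -1.77, -1.87 and -1.57 at 5, 30, 60 and 120 min. LYS12, of the same pathway, started from 2.02 and changed by -1.27, -1.88, -0.74, -0.71 and -0.33. BAT1, of branched-chain amino acids, changed by -1.84, -1.76, -0.88, -0.68 and -0.56. In the sulfur and methionine list 3 of 31 probes fell, 10.7% of the 28 that could be called, against 4.48% of all probes. They were SAM1 and SAM2, which make S-adenosylmethionine, and SAM4, while MET17, which fixes sulfide, rose to 1.81 at 30 min. SAM1 and SAM2 make the same product and their probes may share signal, so the 3 falls may not be independent. The 4 nucleotide synthesis falls were FUR1, APT1, IMD2 and IMD3. IMD2 and IMD3, near-identical genes of GTP synthesis, were lowest at 15 min, at -1.99 and -1.84. LYS9 was past 2-fold at 60 and 120 min but had no 15 min value, so it was not counted as held. Among falls with a value at every time, 3 were held. STE3, a pheromone receptor, changed by -1.19, -1.26, -1.75, -1.62 and -1.70, AGA1, of the mating agglutinin, by -0.28, -1.06, -0.52, -1.18 and -1.44, and CAC2, of a chromatin assembly factor, by -1.98, -1.85, -1.65, -1.21 and -1.08. None of the 3 was held with the mean 0 min value of the 4 strains, against which STE3 stood at -0.67 and -0.75 at 60 and 120 min. The 3 were chosen by their change from the SS330 0 min value, so this count too could only drop.

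Several groups had few or no calls by the rule. No probe of 28 for sporulation and meiosis or of 34 for the cytoskeleton rose or fell. Of 74 spliceosome probes 2 fell, SNU13 and PRP43, both of which also serve ribosome assembly. Over all probes 4.05% rose and 4.48% fell, so few calls are expected in lists of this size. These counts thus do not set the groups apart from all probes. PRP22 changed by 0.39, 0.32, 0.37, 0.01 and 0.43, and CDC40, the current name of PRP17, by 0.47, 0.83, 0.95, 0.67 and 0.34. Neither gene is mutated in this strain as far as the labels say. The mRNAs of the heat regulators stayed within 2-fold: HSF1 changed by 0.72, 0.76, -0.07, 0.28 and 0.21, MSN2 by 0.18, 0.58, 0.51, 0.38 and 0.45, and MSN4 by 0.44, 0.29, -0.33, 0.16 and 0.29. With 1 array per time these values do not show that the genes were constant.

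The share of changed probes that had returned at 120 min was higher in SS330 than in each mutant. With 1 course per strain this difference has no test, an effect of the strain and one of its culture cannot be told apart, and no single gene passed the test given next. By the same rule 7.19%, 3.90% and 4.54% of probes rose in prp17 null, prp17-1 and prp22-1 and 8.80%, 6.60% and 5.92% fell. Of rises 15.7%, 36.6% and 17.5% had returned at 120 min in these strains, against 68.7% in SS330, and of falls 10.6%, 27.9% and 13.4%, against 87.4%. After quantile normalization the SS330 shares were 30.8% and 38.2%, and the mutant shares were not recomputed in that way. Values were present for 79.7% (30 min) to 91.6% (60 min) of probes in prp17 null and for 77.3% in prp22-1 at 15 min. At 120 min the ribosomal protein median was -0.26 in SS330, against -2.20, -1.65 and -1.29 in the mutants in the same order. The general stress median was 0.12 in SS330 and 1.03, 0.70 and 1.04 in the mutants, and the histone median was -0.27 against -2.63, -0.85 and -1.38. At 30 min, by contrast, the histone median of SS330 was the lowest of the 4 strains, at -1.96 against -1.31, -1.10 and -1.88.

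**Figure D5:**
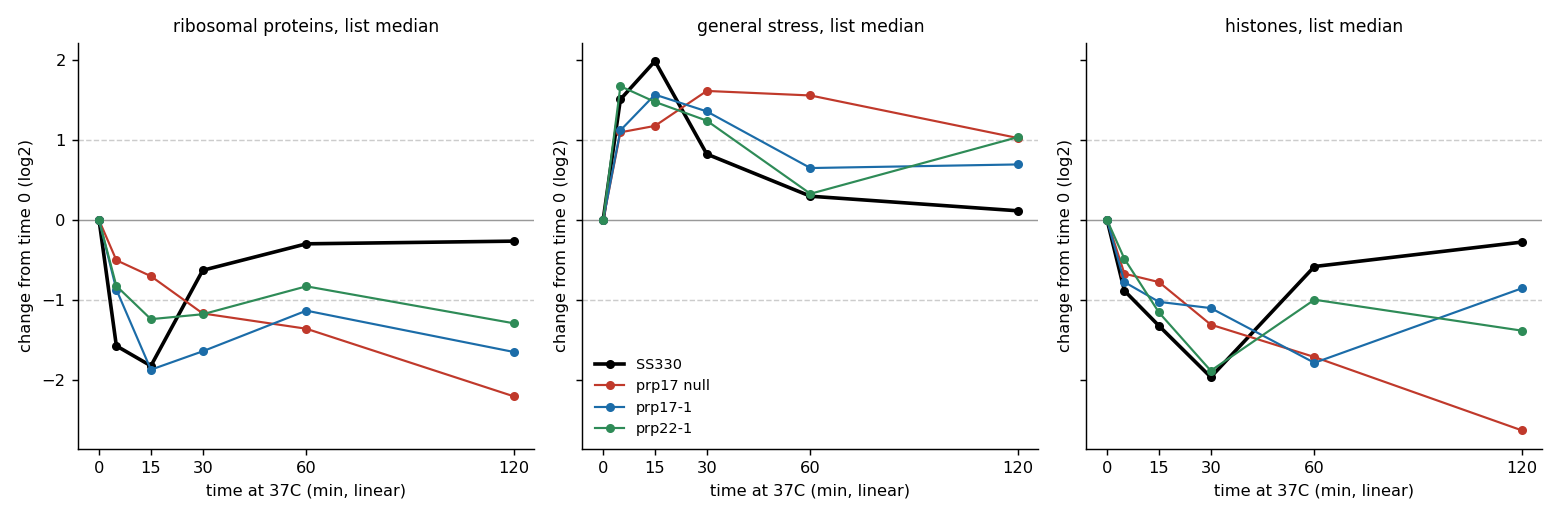
Median change from the strain's own 0 min array (y axis, log2) of 3 gene lists against time at 37C (x axis, min, linear) in SS330 (black) and the 3 mutants, 1 array per strain and time, with dashed lines at 2-fold. At 120 min SS330 is the closest to 0 in each panel.

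The late change, the mean of 60 and 120 min minus 0 min, was set against that of the 3 mutants with limma on 1 value per strain. This test assumes that SS330 would vary as the mutants vary among themselves, and its p-values measure the spread between strains of 1 course each. Of 4017 probes none passed an adjusted p of 0.05 (the smallest adjusted p, by Benjamini-Hochberg, was 0.271), and 255 had an unadjusted p under 0.05 (6.35%), 168 of them higher and 87 lower in SS330. The 5 smallest p belonged to ribosomal protein genes. RPS25B had a late change of -0.10 in SS330 and of -3.17, -2.41 and -2.87 in the mutants, a difference of 2.72 ± 0.36 (SE, limma adjusted p = 0.271). RPL35B and RPL35A differed by 2.02 and 2.12, RPL31A by 2.06 and RPS13 by 1.79, with the same adjusted p. SS330 was above all 3 mutants in 101 of 111 ribosomal protein probes, against 29.4% of all probes tested. The result depended on which mutants were used: without prp22-1 109 probes passed, 73 of them higher in SS330, and without prp17 null 33 passed, 22 of them higher, whereas none passed without prp17-1. An exact permutation test of 1 strain against 3 cannot go below 0.25 one-sided or 0.5 two-sided.

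In the early change, the mean of 5 and 15 min minus 0 min, none of 3106 probes passed (smallest limma adjusted p = 0.978), and 135 had an unadjusted p under 0.05 (4.35%). SS330 was below all 3 mutants in 85 of 104 ribosomal protein probes, against 23.6% of all probes tested, and above all 3 in none, against 28.6%. At 5 min the ribosomal protein median was -1.57 in SS330 and -0.50, -0.87 and -0.82 in prp17 null, prp17-1 and prp22-1. At 15 min it was -1.82 against -0.70, -1.87 and -1.24, so SS330 was not the lowest there. With the mean 0 min value of the 4 strains the SS330 medians were -1.34 and -1.60 at 5 and 15 min. Early and late changes of SS330 share its 0 min array. The smallest unadjusted p was that of HBT1, a shmoo tip protein, with 3.09 in SS330 and 0.91, 1.17 and 1.64 in the mutants, a difference of 1.85 ± 0.33 (SE). NRD1, of transcription termination, changed by 0.50 in SS330 and by -0.90, -0.71 and -0.91 in the mutants. YKU70, of DNA end joining, changed by 1.77 against 0.74, 0.52 and 0.69, and its 0 min value in SS330 was the low one named above.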

How the data were processed

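The authors deposited 1 log2 ratio per probe and array. Per the labels the channels hold RNA (Cy5) and genomic DNA (Cy3). The base of the logarithm was taken as 2, while for the background correction, the normalization and the spot filter the sources used here give nothing. At 0 min the values vary little between probes (SD 0.36), so the values do not look like plain ratios of RNA to DNA, a probe's baseline is unknown and levels of different probes are not compared. That RNA is the numerator was also read from the heat shock genes. The number of arrays limits the precision, and signal over background is unknown. Gene names, updated through the RefSeq table, were given to 5527 of 6350 probes (5493 genes).

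Each array was centred on its median and the strain's 0 min array was subtracted. A call needs 2-fold (1 on the log2 scale) at 2 neighbouring times, returned means within 1.5-fold, and held means past 2-fold at 60 and 120 min. Returned and held were counted only among called probes with a value at every time. The spread came from probes of the same gene. SS330 was tested against 3 mutants with limma 3.58.1 in R 4.3.3 on 1 value per strain, with the Benjamini-Hochberg adjustment. Other steps used Python 3.11.15 (matplotlib 3.10.9, numpy 2.4.6, pandas 2.3.3). The call rule and the strain test were also run on simulated data with large changes set in advance. This does not show how small a change they would find in these data.

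Genes were named by a rule: the 10 largest rises and falls, the 5 most extreme of each timing class, the 4 most and 2 least changed of each of 40 lists, the 5 smallest p of each test, and 7 fixed genes. Not every gene that the rule picks is named, and some lists are left out of the text. Other genes are named to complete a small count or a pathway and were chosen after their values were seen. The course, the lists and the rule were chosen with earlier results of these data known. Alternatives were other centring, quantile normalization, the mean 0 min value of the 4 strains, other folds and neighbour rules, complete probes, and leaving out arrays or strains.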

Additional observations from a re-analysis of the deposited data

How the results depend on the processing

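Against 244 rises and 270 falls by the rule used, 628 and 611 were called at 1.5-fold, 93 and 75 at 3-fold, 395 and 492 when 1 time was enough, and 103 and 39 with 3 neighbouring times. Leaving out each array in turn gave 123 to 240 rises and 47 to 268 falls, with 47.0% to 69.0% of rises and 58.7% to 87.1% of falls returned at 120 min, and the low ends came without the 5 or 15 min array. The share of rises and falls returned was 53.8% and 55.3% with 3 neighbouring times and 30.8% and 38.2% after quantile normalization, which by construction gives the quieter late arrays the spread of the early ones. Other centring, complete probes alone and the mean 0 min value of the 4 strains kept both counts within 1.5 times, with 235 and 275 under the last, of which 186 and 220 were shared. Added after the data were seen, the 120 min array as the baseline gave 177 rises and 238 falls, and letting neighbours skip a missing array gave 250 and 274. Leaving out a mutant gave 0 calls in the early comparison each time and 0 to 109 in the late one. The SD of a single probe was 0.45 after quantile normalization and 0.26 with the mean 0 min value. None of the 62 gene changes and 40 list values recomputed under the planned settings reversed (list values within 1.5-fold of 0 aside), while quantile normalization moved 46 and 14 of them by more than the SD of a single probe and the mean 0 min value moved 25 and 3. Leaving out an array could not reverse any of them, since a called gene keeps another array past 2-fold. A list value was not recomputed without the array it was read from, and the other arrays do not enter it. No analysis paired by replicate was made, since the labels give no replicate numbers that strains share. The strains share sampling times, so a fit matched by time was possible, but it was not run.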

Other observations

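A list made after the data were seen gathers the 22 genes of cytosolic aminoacyl-tRNA synthetases, the enzymes that load tRNAs. Of its 22 probes 10 fell and none rose, and the list medians were -1.07, -1.20, -0.32, -0.17 and -0.16 at 5, 15, 30, 60 and 120 min. GRS1, for glycine, changed by -1.54, -1.82, -0.94, -0.50 and -0.54, and DED81, for asparagine, by -1.31, -1.68, -0.98, -0.44 and -0.44. GRS2, the second glycine gene, stood at 0.47, 0.57, 0.31, 0.11 and 0.01. Since the list was picked for its falls, the count is a description only.

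Of 31 vacuole and autophagy probes 8 rose and none fell. ATG8, the ubiquitin-like protein of autophagosomes, changed by 1.78, 2.02, 0.86, 0.39 and 0.02, ATG1, the kinase that starts them, by 1.41, 1.34, 0.09, 0.41 and 0.28, and PBI2, an inhibitor of vacuolar proteinase B, by 2.19, 1.89, 1.12 and 1.26 at 5, 30, 60 and 120 min. HXT1, the low-affinity glucose transporter, was the sole rise of 19 hexose transport probes and a late one, with -0.65, 0.14, 1.23 and 1.05 at the same times. Of the 514 called probes 31 carry no gene name, and of the 231 named rises and 252 named falls 110 and 194 belong to 1 of the lists.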
